A study of Gallus gallus with 12 samples.

Results

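The cholesterol synthesis enzymes described here are 10 genes of the chicken, HMGCS1, MVK, PMVK, MVD, FDPS, FDFT1, SQLE, LSS, NSDHL and DHCR7. All probe sets that the array annotation assigns to one of these symbols alone were taken, 15 in all of 38439 on the array, and the 10 genes are among 13009 genes named in this way. Of the 15 probe sets 14 were bright enough to be tested, out of 23063, and they cover all 10 genes out of 10406 tested. Each gene is represented by its tested probe set with the highest mean, and the other probe sets of MVK, SQLE, LSS and DHCR7 are given beside it.

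The samples were pineal glands of male chicks 8 days old, measured on 12 Affymetrix arrays. All chicks had 7 days of 12 h light and 12 h darkness and then a day without light. The light groups then received 1 h of light from circadian time (CT) 6 in the subjective day, CT14 in the early subjective night or CT22 in the late subjective night, and the dark groups of the same 3 times received none. Each of the 6 groups has 2 arrays, described by the submitters as biological samples, and the RNA of each sample (9 micrograms) came from 6 glands, so no array shows a single animal. The number of arrays limits the precision of every value. In whole glands, fewer cells that express a gene and less RNA per cell cannot be told apart.

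Cholesterol is built from acetyl units through mevalonate, the isoprenoid diphosphates, squalene and lanosterol. In vertebrates the genes of the pathway share control by sterol regulatory element binding proteins, which are released from the endoplasmic reticulum when sterols there are low, while INSIG proteins hold them back. Farnesyl diphosphate, made midway, also feeds protein prenylation, ubiquinone and dolichol. The pineal gland of birds senses light directly, holds a circadian clock and secretes melatonin, and the study asked if the hour of a light pulse alters the response of its genes.

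Median deposited intensity per array lay between 20.1 and 28.9, and replicate arrays correlated with r between 0.931 and 0.942 over 38439 probe sets. Levels below are log2 quantile-normalized intensities, given for the first and the second replicate. Changes are log2 differences given with limma's standard error (SE) and an adjusted p (Benjamini-Hochberg), and a gene is called changed at an adjusted p under 0.05. The pinealocyte genes TPH1 (12.9 to 13.3 over all arrays), ASMT (12.5 to 12.9) and AANAT (8.46 to 10.2) were bright on every array. All 45 marker genes tested, for pinealocytes and 8 other cell classes, were above the floor on all 12 arrays. The actin control ratio (3-prime over 5-prime signal, which depends on RNA integrity and labelling) was 3.28 and 3.09 on the CT14 light arrays, against 4.67 and 3.95 on the CT14 dark arrays, and 3.62 to 4.23 on the other 8 arrays.

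After the light pulse several of the 10 enzymes were higher than in the dark, and none was called lower. At CT6, 3 of 10 rose (HMGCS1, FDFT1 and NSDHL), where 0.269% of all genes tested rose. At CT14, 5 of 10 rose (these 3, SQLE and LSS), against 1.39% of all genes, and at CT22, 4 of 10 rose (HMGCS1, FDFT1, SQLE and NSDHL), against 2.25%. HMGCS1, FDFT1 and NSDHL passed at all 3 times, as did 0.183% of genes tested. By limma 0 of 10 were called lower at any time, where 0.0577%, 0.692% and 2.49% of all genes were lower at CT6, CT14 and CT22. At an unadjusted p under 0.05 the count was 0, 0 and 1 (MVD). The share of all genes at that unadjusted threshold was not counted for any light effect, so this count has no background beside it. Both light arrays lay above both dark arrays for 5 of 10 enzymes at CT6, 7 at CT14 and 7 at CT22, as they did for 23.2%, 21.4% and 25.2% of all genes. The median light effect over the 10 genes was 0.23 at CT6, 0.76 at CT14 and 0.56 at CT22, and over all genes tested it was 0.013, -0.017 and -0.0033.

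**Figure D1:**
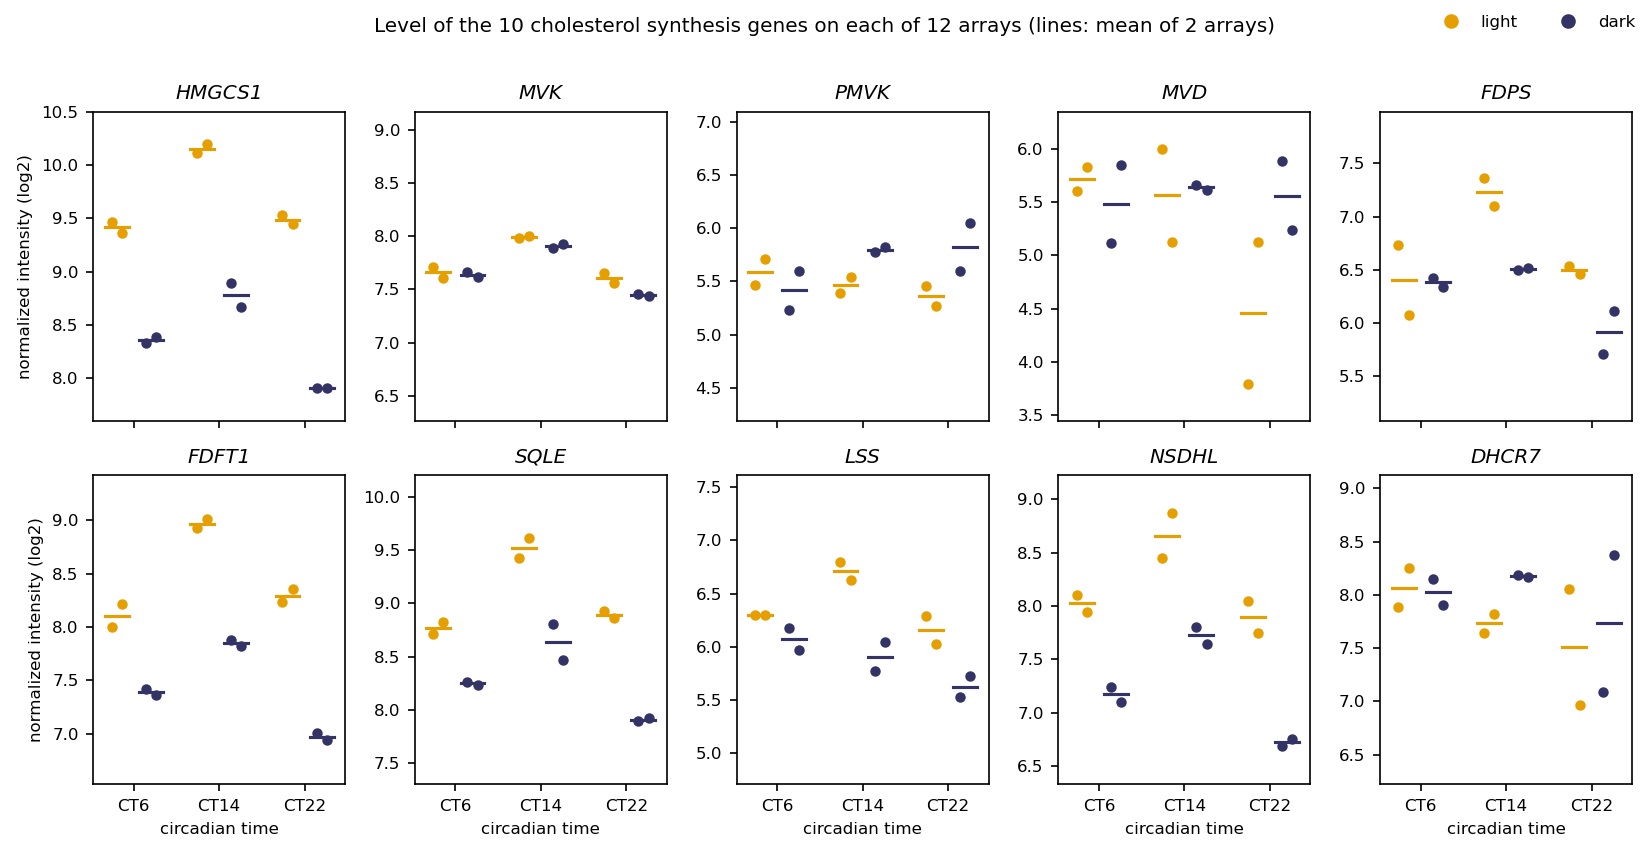
Level of each of the 10 genes (log2 normalized intensity, every panel spanning the same range) on each of 12 arrays by circadian time, with light arrays left of dark arrays and a line at the mean of 2 arrays. For HMGCS1, FDFT1, SQLE, LSS and NSDHL both light arrays lie above both dark arrays at CT6, CT14 and CT22, while those of MVK, PMVK, MVD, FDPS and DHCR7 overlap at CT6.

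HMGCS1 encodes the cytosolic synthase that condenses acetyl-CoA and acetoacetyl-CoA into HMG-CoA, the entry to the mevalonate pathway, and it had the largest light effect among the 10 at each time. At CT6 its level was 9.46 and 9.37 on light arrays, against 8.33 and 8.39 on dark arrays. At CT14 it was 10.11 and 10.19 with light, against 8.89 and 8.67 in the dark. At CT22 it was 9.53 and 9.45 with light, against 7.91 on both dark arrays. The groups did not overlap at any time, and even the lowest light array lay above the highest dark array of any time. HMGCS1 rose by 1.06 ± 0.09 at CT6 (2.08-fold, adjusted p = 8.59e-05), by 1.37 ± 0.09 at CT14 (2.59-fold, adjusted p = 2.06e-06) and by 1.58 ± 0.09 at CT22 (2.99-fold, adjusted p = 3.10e-07). Ordered by level, the groups ran CT14 light, CT22 light, CT6 light, CT14 dark, CT6 dark and CT22 dark. Of these neighbours only CT22 light and CT6 light overlapped on the normalized scale. It passed at all 3 times under each of the alternatives tried.

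The next 3 genes act on mevalonate and none was called changed by light. MVK encodes mevalonate kinase, which adds the first phosphate. Its level was 7.72 and 7.61 with light, against 7.66 and 7.61 in the dark, at CT6, then 7.98 and 8.00 with light against 7.89 and 7.93 in the dark at CT14, and 7.66 and 7.56 with light against 7.46 and 7.44 in the dark at CT22. Its light effect was 0.02 ± 0.10, 0.08 ± 0.10 and 0.16 ± 0.10 at the 3 times, with a 95% interval from -0.05 to 0.37 at CT22. The 95% intervals of these effects lay below those of HMGCS1 at each time. The dimmer second MVK probe set gave -0.56 ± 0.20 at CT6, 0.40 ± 0.20 at CT14 and 0.42 ± 0.20 at CT22, none of them past the threshold, and so differed in sign at CT6.

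PMVK encodes phosphomevalonate kinase, which adds the next phosphate. Its level was 5.46 and 5.71 with light, against 5.23 and 5.60 in the dark, at CT6, then 5.40 and 5.54 with light against 5.78 and 5.82 in the dark at CT14, and 5.46 and 5.27 with light against 5.60 and 6.05 in the dark at CT22. Both light arrays were thus below both dark arrays at CT14 and CT22, but the effects of -0.33 ± 0.22 and -0.46 ± 0.22 did not pass (limma adjusted p = 0.537 and 0.297). MVD encodes the decarboxylase that yields isopentenyl diphosphate. It read 5.61 and 5.83 with light, against 5.11 and 5.85 in the dark, at CT6, and 6.00 and 5.13 with light against 5.66 and 5.62 in the dark at CT14. At CT22 it read 3.80 and 5.12 with light, against 5.89 and 5.23 in the dark. The 2 light arrays at CT22 lay lower but far apart from each other, and the effect of -1.10 ± 0.41 (95% interval -1.98 to -0.22) did not pass after adjustment (limma adjusted p = 0.176). Without any overlap between groups of 2 arrays, light was below dark for 0 of the 10 enzymes at CT6, 2 at CT14 (PMVK and DHCR7) and 2 at CT22 (PMVK and MVD), where 19.6%, 24.5% and 25.3% of all genes were.

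FDPS encodes farnesyl diphosphate synthase, at the branch towards prenylation, ubiquinone and dolichol. Its level was 6.73 and 6.08 with light, against 6.43 and 6.34 in the dark, at CT6, then 7.36 and 7.10 with light against 6.50 and 6.51 in the dark at CT14, and 6.54 and 6.46 with light against 5.71 and 6.12 in the dark at CT22. The groups overlapped at CT6 and not at CT14 or CT22. The light effect was 0.02 ± 0.20 at CT6, 0.72 ± 0.20 at CT14 (1.65-fold, limma adjusted p = 0.107) and 0.58 ± 0.20 at CT22 (limma adjusted p = 0.148), so FDPS was not called. The intervals at CT14 (0.28 to 1.16) and CT22 (0.15 to 1.02) still lay above 0, and 2 alternatives called it at CT14.

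FDFT1 encodes squalene synthase, which joins a pair of farnesyl diphosphates in the first step committed to sterols. It read 8.00 and 8.21 with light, against 7.41 and 7.36 in the dark, at CT6. At CT14 it read 8.93 and 9.01 with light, against 7.88 and 7.83 in the dark. At CT22 it read 8.24 and 8.35 with light, against 7.00 and 6.94 in the dark. All 6 light arrays lay above all 6 dark arrays. In the order of levels (CT14 light, CT22 light, CT6 light, CT14 dark, CT6 dark, CT22 dark) no neighbours overlapped on the normalized scale. FDFT1 rose by 0.72 ± 0.10 at CT6 (1.65-fold, adjusted p = 0.0118), by 1.12 ± 0.10 at CT14 (2.17-fold, adjusted p = 4.48e-05) and by 1.32 ± 0.10 at CT22 (2.50-fold, adjusted p = 8.13e-06).

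SQLE encodes squalene epoxidase, the first oxygenation of the sterol branch. Its brighter probe set read 8.71 and 8.82 with light, against 8.26 and 8.23 in the dark, at CT6. At CT14 it read 9.42 and 9.61 with light, against 8.81 and 8.47 in the dark. At CT22 it read 8.93 and 8.86 with light, against 7.89 and 7.92 in the dark. Light and dark did not overlap at any time, although the CT6 light and CT14 dark arrays did. SQLE rose by 0.88 ± 0.11 at CT14 (1.84-fold, adjusted p = 0.00075) and by 0.99 ± 0.11 at CT22 (1.98-fold, adjusted p = 0.000261), and its CT6 effect of 0.52 ± 0.11 missed the threshold (adjusted p = 0.0784). The other SQLE probe set gave 0.64 ± 0.13, 0.81 ± 0.13 and 0.89 ± 0.13 at CT6, CT14 and CT22 and made the same calls (adjusted p = 0.0612, 0.00421 and 0.00184).

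LSS encodes lanosterol synthase, which closes the sterol rings. Its brightest probe set read 6.30 on both light arrays, against 6.17 and 5.97 in the dark, at CT6. At CT14 it read 6.80 and 6.63 with light, against 5.77 and 6.04 in the dark. At CT22 it read 6.29 and 6.03 with light, against 5.53 and 5.73 in the dark. The light arrays were higher without overlap each time, but the effect passed only at CT14, by 0.81 ± 0.17 (1.75-fold, adjusted p = 0.0318), and was 0.23 ± 0.17 at CT6 and 0.53 ± 0.17 at CT22 (adjusted p = 0.71 and 0.119). Its 2 other probe sets gave 0.35, 0.58 and 0.47 and, for the dimmest, 0.11, 0.39 and 0.33 at CT6, CT14 and CT22, all positive and none called. Leaving out single arrays gave 0.67 to 0.94 for LSS at CT14, and the call was lost without either CT14 light array or without the first CT14 array from the dark. It was also lost when the dimmest LSS probe set or the mean of all 3 stood for the gene.

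**Figure D2:**
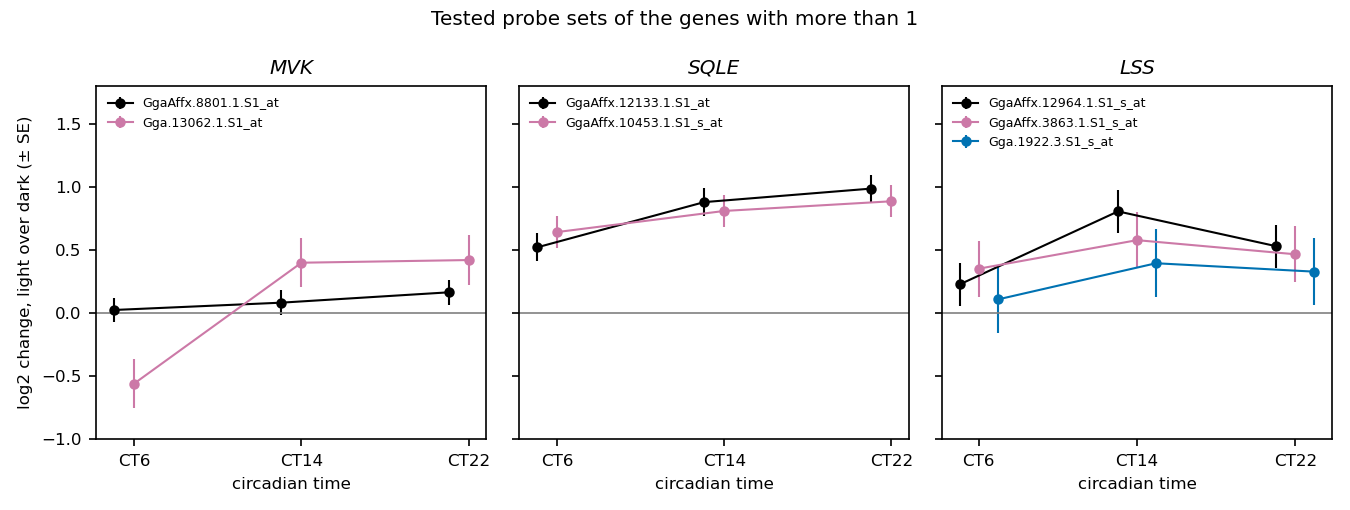
Light effect (log2 change, light over dark, ± SE of the fit) by circadian time for every tested probe set of the 3 genes with more than 1, with the brightest in black. The SQLE and LSS probe sets share a positive sign at each time, while the second MVK probe set lies at -0.56 at CT6 and the brightest at 0.02.

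NSDHL encodes a sterol dehydrogenase that helps strip methyl groups from lanosterol-derived sterols. At CT6 it read 8.11 and 7.94 with light, against 7.24 and 7.10 in the dark. At CT14 it read 8.45 and 8.87 with light, against 7.81 and 7.65 in the dark. At CT22 it read 8.04 and 7.74 with light, against 6.69 and 6.75 in the dark. Light and dark were apart at each time, while CT22 light overlapped both CT6 light and CT14 dark. NSDHL rose by 0.85 ± 0.15 at CT6 (1.81-fold, adjusted p = 0.0363), by 0.93 ± 0.15 at CT14 (1.91-fold, adjusted p = 0.00421) and by 1.17 ± 0.15 at CT22 (2.25-fold, adjusted p = 0.000684). The CT6 call was lost under 10 of 23 alternatives, among them leaving out any 1 of the 4 CT6 arrays or either CT22 dark array, with effects of 0.77 to 0.93 when single arrays were left out.

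DHCR7 encodes the reductase that makes cholesterol in the last step of one route. It read 7.88 and 8.25 with light, against 8.15 and 7.91 in the dark, at CT6, then 7.65 and 7.82 with light against 8.19 and 8.16 in the dark at CT14, and 8.05 and 6.97 with light against 7.09 and 8.38 in the dark at CT22. The CT22 replicates of either group lay more than 1 apart on the log2 scale, and no light effect was called (0.04 ± 0.35, -0.45 ± 0.35 and -0.22 ± 0.35, with intervals from -0.72 to 0.79, -1.20 to 0.31 and -0.98 to 0.54). Each of these intervals spans 0. The second DHCR7 probe set averaged 2.94, below the filter at 3.73, and was not tested. It read 3.31 and 3.04 with light, against 2.15 and 2.45 in the dark, at CT6. At CT14 it read 2.70 and 3.61 with light, against 2.19 and 2.51 in the dark. At CT22 it read 3.29 and 3.51 with light, against 3.27 and 3.26 in the dark.

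**Figure D3:**
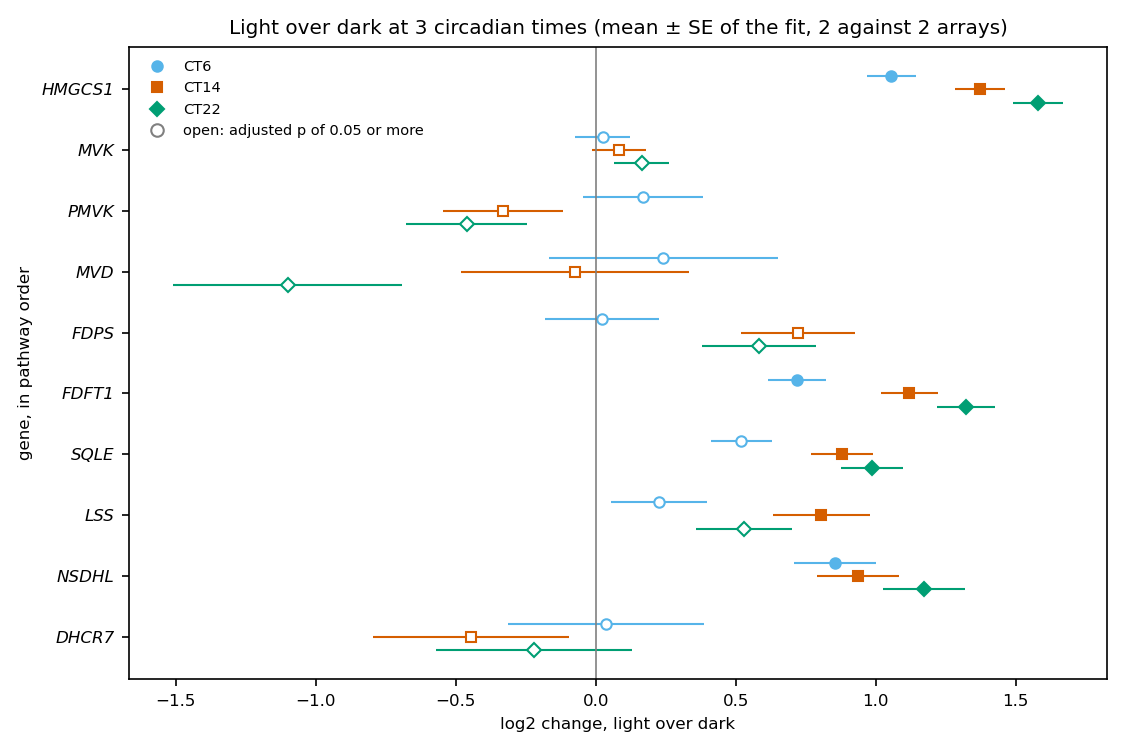
Light effect of each gene in pathway order (log2 change, light over dark, ± SE of the fit, 2 against 2 arrays) at CT6, CT14 and CT22, with filled symbols for an adjusted p under 0.05. Filled symbols fall on HMGCS1 at the top and on FDFT1, SQLE, LSS and NSDHL of the sterol branch, between 0.72 and 1.58, and on none of MVK, PMVK, MVD, FDPS or DHCR7.

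Averaged over the 3 times, light raised 5 of 10 enzymes, where 2.29% of all genes tested rose, and lowered 0 by limma, where 1.49% fell (also 0 at an unadjusted p under 0.05). These were HMGCS1 by 1.34 ± 0.05, FDFT1 by 1.05 ± 0.06, NSDHL by 0.99 ± 0.08, SQLE by 0.80 ± 0.06 and LSS by 0.52 ± 0.10. The averaged LSS call was lost with the log2 actin ratio as a covariate (0.38, limma adjusted p = 0.341) and with its dimmest probe set (0.28, limma adjusted p = 0.419). FDPS came next with 0.44 ± 0.12 (limma adjusted p = 0.0644). The 4 others averaged from -0.31 to 0.09 and did not pass. The CT6 count rests on few arrays, since FDFT1 and NSDHL lost their calls there without the second CT6 dark or the second CT6 light array, which left 1 of 10. At CT14, 3 of 10 passed without the second CT14 light array, with NSDHL and LSS lost.

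At CT14 the light arrays also had the lower actin ratio. With the log2 ratio as a covariate, HMGCS1 alone of the 10 was called at CT14 (1.57). The other effects under that covariate were 1.05 for FDFT1, 1.02 for SQLE, 0.85 for NSDHL and 0.46 for LSS, while 18 probe sets rose over the whole array, against 264 without it. The counts of 3 at CT6 and 4 at CT22 stayed as they were with the covariate. At CT22 the summed signal of 6 pinealocyte genes was 20307 to 21782 on light arrays, against 23818 to 24544 on dark arrays, with AANAT, PDC and PDE6G called lower. The choroid plexus genes FOLR1 and KL were higher at CT22 with light (2 of 5 markers, summed signal 8558 to 9072 with light against 8042 to 8463 in the dark), and COL1A1 and COL1A2 of 5 fibroblast markers were higher (9489 to 10035 with light against 9015 to 9540 in the dark). MBP, 1 of 5 myelin markers, was lower (summed signal 853 to 940 with light against 1087 to 1122 in the dark). GFAP, 1 of 5 astroglial markers, was lower too, while the astroglial sums overlapped (1961 to 2063 with light against 1803 to 2087 in the dark). The median light effect at CT22 was 0.14 over the 5 myelin markers and 0.14 over the 5 astroglial markers. At CT14, RBP3 of the pinealocyte genes (summed signal 21873 to 23262 with light against 20594 to 21205 in the dark) and COL1A1 were called higher, and 3 erythrocyte genes summed to 6003 to 6463 with light against 8200 to 8839 in the dark, with 0 called by limma and 2 (HBA1 and HBAD) lower at an unadjusted p under 0.05. The part of these shifts in the enzyme results was not tested.

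Whether the light effect differed between times was tested directly. On the normalized scale its point estimate grew from CT6 over CT14 to CT22 for HMGCS1, FDFT1, SQLE and NSDHL. It also did for MVK, which had no light call. The step from CT14 to CT22 depended on the scale. On the deposited values it was 0.006 for HMGCS1, -0.033 for FDFT1, -0.11 for SQLE, -0.005 for NSDHL and -0.16 for MVK. The median of this step over all probe sets was -0.25 there. The effect at CT22 exceeded that at CT6 by 0.52 ± 0.13 for HMGCS1 (limma adjusted p = 0.121), 0.60 ± 0.15 for FDFT1 (0.124) and 0.47 ± 0.16 for SQLE (0.274), so none passed. The difference of CT14 minus CT6 was 0.32 ± 0.13 for HMGCS1 and 0.40 ± 0.15 for FDFT1, and likewise did not pass. In limma's F test over the 3 times 0 of 10 enzymes passed after adjustment, where 1.82% of genes did, and 3 had an unadjusted p under 0.05 (HMGCS1, FDFT1 and SQLE), where 17.5% of genes did. By limma 0 of 10 passed in any pairwise difference. Higher and lower calls covered 0.125% and 0.0288% of genes for CT14 minus CT6, 0.221% and 0.0865% for CT22 minus CT6, and 1.67% and 1.28% for CT22 minus CT14. At an unadjusted p under 0.05 the light effect was larger at CT14 than at CT6 for 5 of 10 (HMGCS1, FDPS, FDFT1, SQLE and LSS), where 5.54% of genes were larger, and smaller for 0, where 6.07% were. By the same measure it was larger at CT22 than at CT6 for 3, where 6.15% of genes were, and smaller for 1 (MVD), where 6.70% were. Between CT22 and CT14 it differed for 0, where 9.21% of genes were larger and 8.84% smaller at CT22. These counts use the brightest probe sets. The other SQLE probe set gave 0.17 ± 0.18 for CT14 minus CT6 and 0.24 ± 0.18 for CT22 minus CT6. The other LSS probe sets gave 0.23 ± 0.32 and 0.29 ± 0.38 for CT14 minus CT6. None of these passed at an unadjusted p under 0.05, nor did that SQLE probe set in the F test. The dimmer MVK probe set did in both differences, 0.96 ± 0.28 and 0.98 ± 0.28, and in the F test.

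Some of the enzymes also varied with the time of day in the dark groups. By limma's F test over the 3 dark groups 5 of 10 differed between times (HMGCS1, MVK, FDFT1, SQLE and NSDHL), where 8.00% of genes did. MVK had no light call, and LSS, called with light at CT14, did not pass this test. On the normalized scale the dark arrays of 6 genes, these 5 and FDPS, were ordered CT14 above CT6 above CT22 with no overlap. So were those of 4.35% of genes. This order was not kept on the deposited intensities. There the CT22 and CT6 dark arrays overlapped for these 5, with HMGCS1 at 303 and 255 at CT22, against 302 and 308 at CT6. For FDPS the overlap was between CT14 (75.8 and 87.2) and CT6 (83.0 and 77.3). The share of all genes so ordered on that scale was not counted. At CT22, 5 of 10 were lower than at CT14, against 4.40% of genes, and 0 were higher, against 3.70% (0 also at an unadjusted p), with the per-array values given above. Shares of all genes at an unadjusted p were not counted for pairwise dark differences. NSDHL fell by 1.01 on the log2 scale (SE 0.15, adjusted p = 0.00108), FDFT1 by 0.88 (SE 0.10, adjusted p = 0.000203), HMGCS1 by 0.87 (SE 0.09, adjusted p = 6.54e-05), SQLE by 0.73 (SE 0.11, adjusted p = 0.00137) and MVK by 0.46 (SE 0.10, adjusted p = 0.0123). FDPS differed by -0.59 ± 0.20 (adjusted p = 0.111) and LSS by -0.28 ± 0.17, neither called, although the second LSS probe set passed with -0.83 ± 0.22 (adjusted p = 0.0426). The second MVK probe set was not called, with -0.33 ± 0.20, and did not pass the F test over the dark groups (limma adjusted p = 0.191). Its dark arrays were ordered CT6 (5.82 and 5.94) above CT14 (5.64 and 5.59) above CT22 (5.47 and 5.10).

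**Figure D4:**
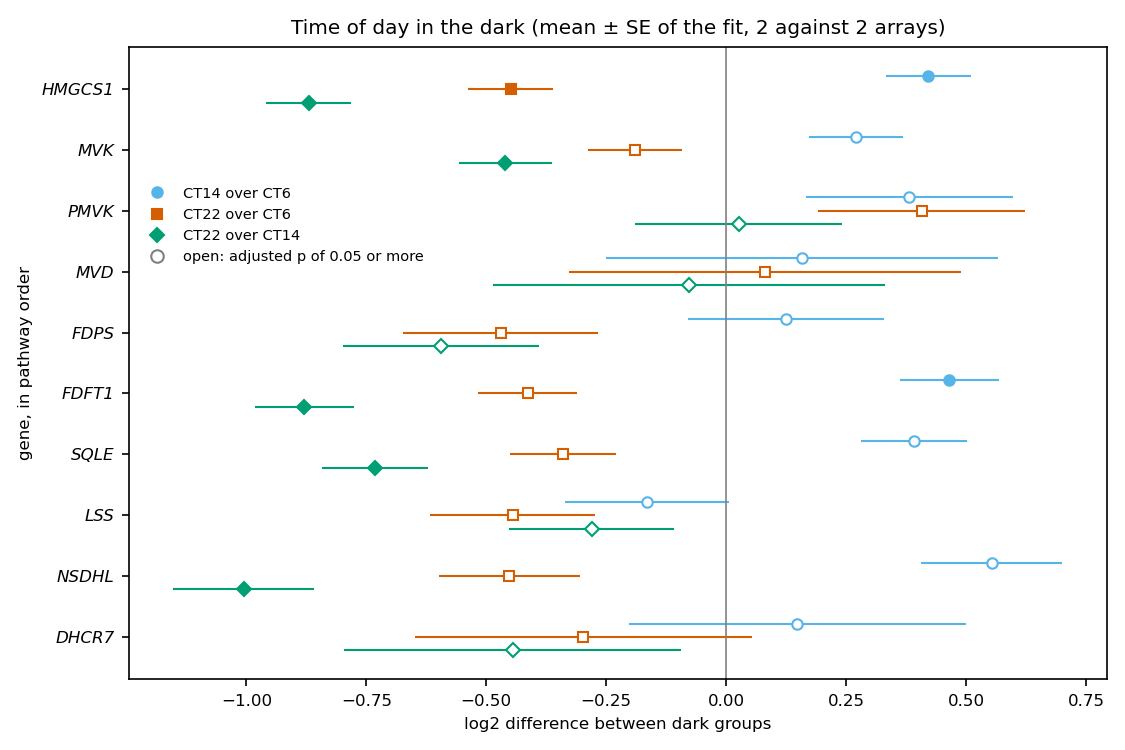
Differences between dark groups for each gene in pathway order (log2, ± SE of the fit, 2 against 2 arrays), with filled symbols for an adjusted p under 0.05. For CT22 over CT14, HMGCS1, MVK, FDFT1, SQLE and NSDHL lie between -1.01 and -0.46, and for CT14 over CT6 only HMGCS1 and FDFT1 are filled.

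At CT14 the dark level was higher than at CT6 for 2 of 10 enzymes, HMGCS1 by 0.42 ± 0.09 (adjusted p = 0.0196) and FDFT1 by 0.47 ± 0.10 (adjusted p = 0.0251), where 2.00% of genes were higher, and lower for 0, where 2.37% were (0 also at an unadjusted p). At CT22 it was lower than at CT6 for 1 of 10, HMGCS1, which fell by 0.45 (SE 0.09, adjusted p = 0.0298), where 0.596% of genes were lower, and higher for 0, where 0.865% were (0 also at an unadjusted p). On the deposited values none of these 3 calls passed. The CT14 differences from CT6 were there 0.39 for HMGCS1 and 0.40 for FDFT1, while the CT22 difference of HMGCS1 from CT6 was -0.13. On that scale the median over all probe sets was itself 0.28 higher at dark CT22 than at dark CT6 and 0.37 higher than at dark CT14. Both CT14 calls against CT6 were also lost without either CT6 dark array or the first CT14 dark array, with differences of 0.31 to 0.45 for HMGCS1 and 0.44 to 0.50 for FDFT1. The CT22 call against CT6 was lost without any 1 of the 4 dark arrays of these times, at -0.48 to -0.42. The falls of HMGCS1, FDFT1, SQLE and NSDHL at CT22 against CT14 passed under each alternative tried, with sizes on the deposited scale of -0.52, -0.51, -0.38 and -0.63, and the MVK call was lost there, at -0.09. It was also lost without any 1 of the 4 dark arrays of these times, although the difference stayed at -0.48 to -0.44. The MVK call was lost too when its dimmer probe set (-0.33) or the mean of both probe sets (-0.39) stood for the gene. At CT14 against CT6 the dimmer MVK probe set differed by -0.26 ± 0.20 and the brighter by 0.27 ± 0.10, neither called. For SQLE the brighter probe set differed by 0.39 ± 0.11 and was not called (limma adjusted p = 0.0719). The other SQLE probe set was called higher at CT14, by 0.59 ± 0.13 (limma adjusted p = 0.0218). Both the light effects and the dark differences use the same dark arrays, so they are not independent of each other.

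Markers moved between the dark times too. At CT14 against CT6, AANAT was higher and ASMT, RBP3 and PDE6G were lower among 6 pinealocyte genes. Their summed signal was 20594 to 21205 at CT14 against 22599 to 22954 at CT6. COL1A1 and COL1A2 of 5 fibroblast markers were lower (8237 to 9004 at CT14 against 9395 to 9603 at CT6), and so was SOX10 of 5 myelin markers. The myelin sums overlapped (874 to 1221 at CT14 against 1028 to 1069 at CT6), and MOG and MOBP were higher at an unadjusted p under 0.05. At CT22 against CT6, AANAT, 1 of 6 pinealocyte genes, and NEFL, 1 of 5 neuronal genes, were higher. The neuronal summed signal was 3497 to 3657 at CT22 against 3619 to 3927 at CT6, and STMN2 was lower at an unadjusted p under 0.05. AANAT, ASMT, RBP3 and PDE6G, 4 of 6 pinealocyte genes, were higher at CT22 than at CT14 in the dark (summed signal 23818 to 24544 at CT22 against 20594 to 21205 at CT14). FOLR1, KL and CLIC6 of 5 choroid plexus genes were lower at CT22 (8042 to 8463 at CT22 against 8776 to 9585 at CT14). NEFL and NEFM, 2 of 5 neuronal genes, were higher (3497 to 3657 at CT22 against 2950 to 3249 at CT14). GFAP of 5 astroglial and COL1A1 of 5 fibroblast markers were higher too. The astroglial sums overlapped (1803 to 2087 at CT22 against 1794 to 1904 at CT14), and the fibroblast sums did not (9015 to 9540 against 8237 to 9004). The part of these shifts in the dark differences of the enzymes was not tested.

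Across the 12 arrays the members differed in how closely they followed each other. Pearson's r of each gene with the mean of the other 9, over 12 arrays that share the light and time groups, was 0.940 for NSDHL, 0.929 for SQLE, 0.904 for FDFT1, 0.878 for HMGCS1, 0.858 for LSS, 0.837 for FDPS and 0.813 for MVK. It was -0.031 for DHCR7, -0.136 for MVD and -0.292 for PMVK. MVD and PMVK were the dimmest of the members (mean 5.40 and 5.58). The SE of a light effect at a single time was 0.41 for MVD, 0.35 for DHCR7 and 0.22 for PMVK. For the other members it ran from 0.09 (HMGCS1) to 0.20 (FDPS). The part of this spread in the low r was not tested. The r of MVK is that of its brighter probe set, whose light effects were 0.02, 0.08 and 0.16 at CT6, CT14 and CT22. Its dimmer probe set, with light effects of -0.56, 0.40 and 0.42, did not enter. What lay behind the r of MVK was not tested.

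The genes outside the 10 with the profile most like their mean were sought among 10395 genes by Pearson's r over the 12 arrays. The closest was NFIL3, a transcriptional repressor known from clock output, with r = 0.976 and a light effect of 1.43 at CT6, 1.38 at CT14 and 1.70 at CT22, all called. IDI2, whose mammalian namesake encodes an isopentenyl diphosphate isomerase, followed with r = 0.940 and light effects of 0.66, 0.77 and 1.15, called at CT14 and CT22. IDI2 is the annotation's name, and whether this chicken gene corresponds to IDI1, a listed enzyme of the pathway not among the 7 described next, was not settled. Then came STARD4, a carrier of cholesterol between membranes (0.916), NAAA, a lipid amidase of lysosomes (0.907), MSMO1, an oxidase that acts on sterol methyl groups (0.906), P3H2, a collagen prolyl hydroxylase (0.894), ACTC1, an actin (0.891), and HSD17B7, a sterol ketoreductase of the pathway (0.891). NAAA and P3H2 had no light effect past the threshold at any time.

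Among the other enzymes of the pathway 7 were analysed. With light, 0 of the 7 passed at CT6, where 0.269% of all genes rose. At both CT14 and CT22, 2 rose, MSMO1 and HSD17B7, where 1.39% and 2.25% of all genes rose. MSMO1 read 11.49 and 11.76 with light, against 11.18 and 10.97 in the dark, at CT14, and 10.94 and 10.80 with light, against 10.33 and 10.14 in the dark, at CT22. It rose by 0.55 ± 0.10 at CT14 and 0.63 ± 0.10 at CT22 (adjusted p = 0.0131 and 0.00399), and its CT6 effect was 0.49 ± 0.10 (adjusted p = 0.0678). HSD17B7 rose by 0.72 ± 0.15 and 0.73 ± 0.15 at CT14 and CT22 (adjusted p = 0.029 and 0.0175). ACAT2, at the acetyl-CoA entry, GGPS1, LBR, SC5D and CYP51A1 were not called, and CYP51A1, the lanosterol demethylase, varied widely (-1.33 ± 0.59 at CT22). LBR, a sterol reductase of the inner nuclear membrane, had effects of -0.31 ± 0.12 at CT14 and -0.46 ± 0.12 at CT22 (limma adjusted p = 0.249 and 0.0515). At an unadjusted p under 0.05, LBR was lower at both times and CYP51A1 at CT22. The median over the 7 was 0.30 at CT6, 0.10 at CT14 and 0.07 at CT22, and MSMO1 was the 1 gene of them with an unadjusted p under 0.05 at CT6.

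Of 18 genes of sterol sensing, uptake and transport 15 were tested. With light, 2 rose at CT6 and 2 at CT14 (INSIG1 and STARD4), and 3 rose and 1 fell at CT22. Over all genes tested 0.269%, 1.39% and 2.25% rose at these times, and 2.49% fell at CT22. The other 13, 13 and 11 genes of the list were not called. INSIG1, which retains the sterol-sensing complex in the endoplasmic reticulum and is itself a target of it, read 8.18 and 8.13 with light, against 7.28 and 7.30 in the dark, at CT6. At CT14 it read 8.88 and 9.09 with light, against 7.72 and 7.55 in the dark, and at CT22 8.43 and 8.41 with light, against 7.09 and 7.05 in the dark. All 6 light arrays lay above all 6 dark arrays, and INSIG1 rose by 0.87 ± 0.10, 1.35 ± 0.10 and 1.35 ± 0.10 at CT6, CT14 and CT22. STARD4 rose at the same times by 0.69, 0.75 and 0.49 (SE 0.10 each). At CT22, NPC1, which exports cholesterol from lysosomes, rose by 0.69 ± 0.12, and ABCA1, which exports it from the cell, fell by 0.80 (SE 0.15). SREBF2, the gene of the sterol regulatory transcription factor, and its escort SCAP were not called, with effects from -0.20 to 0.33. INSIG2 was not called either, with effects of 0.02, 0.01 and 0.01 at CT6, CT14 and CT22 (SE 0.10 each).

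**Figure D5:**
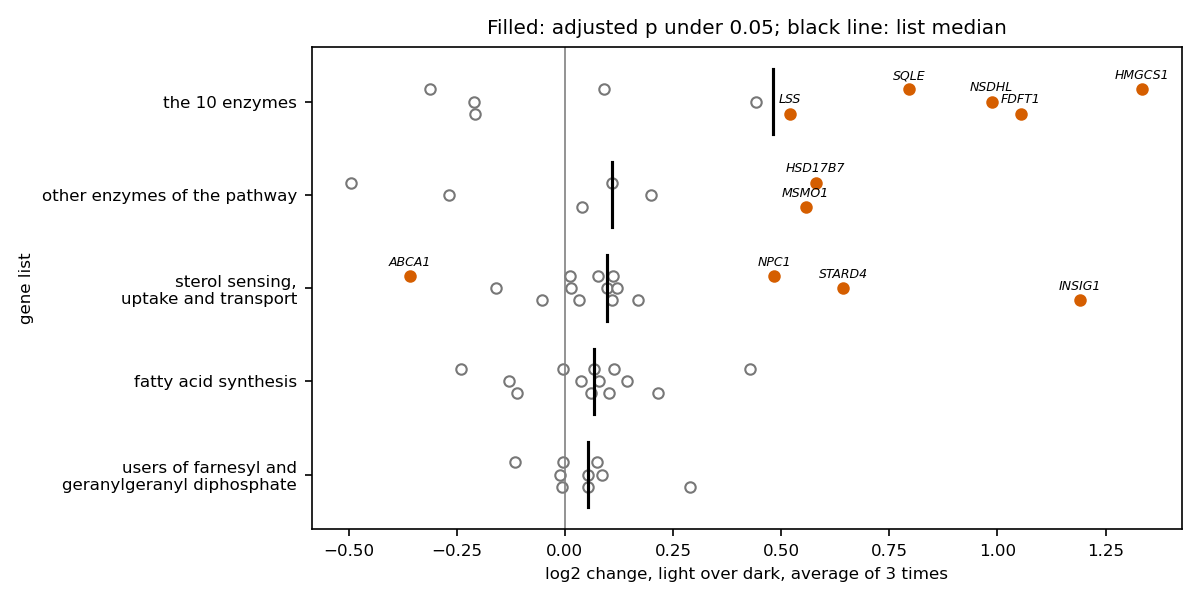
Light effect averaged over the 3 times (log2 change, light over dark) for each tested gene of 5 lists, 1 point per gene, with filled points for an adjusted p under 0.05 and a black line at the list median. The 10 enzymes have a median of 0.48 with 5 filled points, and the lists of fatty acid synthesis and of farnesyl and geranylgeranyl diphosphate users have 0 filled points and medians of 0.067 and 0.052. Over all genes tested 2.29% were called higher and 1.49% lower on this average.

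Genes of fatty acid synthesis share regulators of the same family. Of 16 listed genes 13 were tested, and by limma 0 were called with light at CT6, CT14 or CT22, with 0, 3 and 3 at an unadjusted p under 0.05 in either direction. FASN, the fatty acid synthase, had effects of -0.20, 0.26 and -0.07, and ACACA, which makes malonyl-CoA, had -0.16, 0.26 and 0.01 at CT6, CT14 and CT22. Likewise 0 of 9 tested users of farnesyl or geranylgeranyl diphosphate, among them the prenyltransferase subunits FNTA and FNTB and the dolichol enzyme DHDDS, were called with light at any time, with 1 at each time at an unadjusted p under 0.05. Effects of the 3 genes ran from -0.13 to 0.51. Over all genes tested, 0.269%, 1.39% and 2.25% were called higher at CT6, CT14 and CT22, and 0.0577%, 0.692% and 2.49% lower. With shares this small, 0 calls in lists of 13 and 9 genes do not show a lack of response. Shares at an unadjusted p were not counted for the light effects. In the dark, ACSL3, an acyl-CoA synthetase, was the 1 gene of both lists called between CT22 and CT14. It fell by 0.97 (SE 0.18, adjusted p = 0.0061), where 4.40% of all genes tested were lower and 3.70% higher. From the lists of other pathway enzymes and of sterol sensing, MSMO1 (-0.84 ± 0.10), INSIG1 (-0.56 ± 0.10) and STARD4 (-0.38 ± 0.10) were called lower there, and 0 higher.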

How the data were processed

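The authors deposited 1 linear intensity per probe set and array of an Affymetrix chicken expression array. Which software summarised the probes, and with what scaling, is not given in the sources used here. Per the labels, samples were made with the one-cycle labelling kit from total RNA of 6 glands. Of 38535 probe sets 96 are controls. The platform annotation names 1 gene for 27168 of the others, several for 177 and none for 11094. The probe sets of HMGCS1, FDFT1 and LSS and 1 of SQLE are of a design that can match several transcripts. No genome was used and no coordinates or sequences are given.

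Values were quantile normalized over the 12 arrays, set to at least 1 and taken to log2 here, which hides any shift common to most of the array. Of the deposited intensities 6.24% lay under 1. Those probe sets whose mean passed the 40th percentile (log2 3.73) entered a fit by limma 3.58.1 (R 4.3.3) of 6 group means, with 6 residual degrees of freedom, a variance trend and prior degrees of freedom of 7.28. P-values were adjusted by Benjamini-Hochberg over all 23063 probe sets for each of 10 contrasts and 2 F tests. The tested probe set with the highest mean stands for a gene, in counts and shares of genes too. The fit was run on simulated data with independent noise and changes planted at CT14 alone, as a check of the code. Its outcome is not used here.

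All 10 members are named, with the lists of other pathway enzymes, sterol sensing and transport, fatty acid synthesis, and users of farnesyl and geranylgeranyl diphosphate, described by counts and medians. The 8 genes most like the members had the highest Pearson's r with their mean centred profile, passing over unnamed loci. Members and lists were chosen with earlier results of these data known. Samples of the light and dark groups share replicate numbers, but the differences between replicates of light and dark arrays correlated with r = -0.027, 0.028 and 0.023 at CT6, CT14 and CT22, so the numbers were not taken to pair them.

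The alternatives were the deposited scale, centring arrays on medians, no filter or the 60th percentile, 16 added before log2, no variance trend, the replicate number as a block, the actin ratio as a covariate, only the arrays of the time or only the dark arrays, the dimmest probe set or the mean of a gene's probe sets, and leaving out each array.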

Additional observations from a re-analysis of the deposited data

How the results depend on the processing

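With 2 arrays per group the calls rest on a spread shared over groups and on few arrays, and the light and dark levels are intensities whose scaling by the submitters is unknown. Signal over background is known only as brightness: DHCR7's second probe set lay below the filter. Over 100 gene results and 2260 alternatives, 2128 kept direction and side of the threshold. Of the rest 61 lost a call, 16 gained one, 55 values that were not called changed sign, and 0 called values reversed. Results that were not called, among them every difference in light effect between times, could not lose a call. The 61 losses thus fall on the called results alone. Under 23 alternatives each, NSDHL with light at CT6 lost its call in 10, LSS at CT14 in 9 and FDFT1 at CT6 in 5. In the dark, the HMGCS1 call of CT22 against CT6 was lost in 9. HMGCS1 at all 3 times, and FDFT1, SQLE and NSDHL at CT22, stayed called with light under each alternative. The cause of the changes below was not tested.

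On the deposited scale the all-probe-set median light effect was 0.12 at CT14 and -0.11 at CT22, the members' median difference of CT22 minus CT14 in light effect was -0.13, the dark counts were 0 higher at CT14 and 0 lower at CT22 against CT6 and 3 by the F test, and the dark medians were -0.069 for CT22 against CT6 and -0.16 for CT22 against CT14. Centring arrays on their median gave 4 members higher at dark CT14 and 0 lower at dark CT22, both against CT6, and without a filter 0 were lower at dark CT22. Without a variance trend 1 member was called with light at CT6 and 3 at CT14, 0 and 0 in the dark against CT6, and 2 by the dark F test. The actin covariate left 1 member at CT14 with light and 1 at dark CT14 against CT6. The dimmest probe sets gave a median of 0.56 at CT14 with light. Fits on the arrays of 1 time alone called 1 at CT6, and fits on the dark arrays alone called 0 at CT14 and 0 at CT22 against CT6.

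Leaving out single arrays gave 1 to 4 members higher with light at CT6, 3 to 5 at CT14 and 4 at CT22, with median effects of 0.23 to 0.43 at CT6. In the dark it gave 0 to 3 higher at CT14 and 0 to 1 lower at CT22 against CT6, and medians of -0.77 to -0.44 for CT22 against CT14. The median difference of CT22 minus CT14 in light effect ran from -0.13 to 0.15. With the replicate block, 2 members were called with light at CT6, 5 at CT14 and 4 at CT22, and the call of NSDHL at CT6 was lost. The NSDHL effect at CT6 was 0.85 with and without the block, and its limma adjusted p was 0.0536 with it and 0.0363 without. Over all probe sets the calls at CT6 ranged from 9 to 243 higher and 0 to 30 lower (41 and 10 as reported), at CT14 from 18 to 310 and 0 to 162 (264 and 122), and at CT22 from 89 to 496 and 73 to 546 (398 and 442).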
